A study of Mus musculus with 18 samples.

Results

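Slc16a12 and 7 other genes of the SLC16 family of monocarboxylate transporters (Slc16a1, Slc16a4, Slc16a6, Slc16a7, Slc16a9, Slc16a10 and Slc16a13) were followed across all 18 arrays of the study. The 8 genes were taken by symbol from the array annotation, which gave 9 transcript clusters, 1 per gene except for Slc16a9 with 2, of 23410 clusters with a gene symbol and 35556 in all. Slc16a12 was chosen from the genes that the study had listed for its DEAB experiment, from the same arrays, so its values in that experiment are a description with no test. RNA came from mIMCD-3 cells, an immortalized line of mouse inner medullary collecting duct (CD) cells that was treated for 24 h in 2 separate experiments, each done as 3 independent biological experiments numbered 1 to 3. In the AGN193109 experiment, the groups were 1 µM AGN193109, an antagonist of the retinoic acid receptors (RARs), with 0.2 µM all-trans retinoic acid (tRA); 1 µM AGN193109 alone; and vehicle. In the DEAB experiment, they were 25 µM DEAB, an inhibitor of the aldehyde dehydrogenases that make tRA, with 0.01 µM tRA; 25 µM DEAB alone; and vehicle. Vehicle was ethanol and DMSO in both, each group had 3 arrays, and no group analysed here received tRA alone. The study used the first design to find genes that depend on RARs and the second to find genes that depend on endogenous tRA. All cells were of a single line in monoculture, and the tRA doses differed between the experiments.

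Monocarboxylate transporters are membrane proteins that let small organic acids cross the cell membrane. Slc16a1 and Slc16a7 carry lactate, pyruvate and ketone bodies together with a proton, Slc16a10 carries aromatic amino acids and also thyroid hormone, Slc16a9 was described as a carnitine transporter in humans, and Slc16a12 carries creatine and its precursor guanidinoacetate. Guanidinoacetate is made in the proximal tubule of the kidney and turned into creatine mainly in the liver, and SLC16A12 mutations in humans were linked to cataract with glucosuria. RARs are nuclear receptors that bind DNA with a retinoid X receptor, often at a repeated hexamer, and raise the transcription of their targets when tRA is bound.

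The promoter of Slc16a12 is shown because this was the member whose level moved most, and that of Slc16a1, a lactate transporter, because its window holds a hexamer of the kind that RARs bind. Both windows run from 250 bases before to 50 bases after an annotated transcript start in RefSeq (GRCm38.p6), 5′ to 3′ on the strand of the gene. The Slc16a12 window lies on the minus strand at chr19:34747279-34747578 and that of Slc16a1 on the plus strand at chr3:104638414-104638713. Capitals mark the hexamer AGGTCA or its variants (AGTTCA as well as GGGTCA and also GGTTCA) on either strand.
Slc16a12: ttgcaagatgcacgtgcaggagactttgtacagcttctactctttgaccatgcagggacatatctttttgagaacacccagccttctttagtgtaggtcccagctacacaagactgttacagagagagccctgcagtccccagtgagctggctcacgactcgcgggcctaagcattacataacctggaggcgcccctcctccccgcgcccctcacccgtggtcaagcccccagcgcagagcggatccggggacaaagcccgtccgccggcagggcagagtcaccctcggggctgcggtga
Slc16a1: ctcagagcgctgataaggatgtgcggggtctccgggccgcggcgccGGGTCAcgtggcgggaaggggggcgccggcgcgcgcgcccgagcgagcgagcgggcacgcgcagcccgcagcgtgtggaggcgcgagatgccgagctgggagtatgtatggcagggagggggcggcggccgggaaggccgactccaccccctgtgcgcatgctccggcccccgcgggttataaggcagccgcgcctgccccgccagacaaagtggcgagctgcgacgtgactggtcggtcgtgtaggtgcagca
A hexamer was found in the windows of 2 of the 5 members that the promoter table holds (Slc16a1 and Slc16a9; the others were Slc16a4, Slc16a10 and Slc16a12), against 43.7% of the 32851 promoter windows in the table. Direct repeats of a hexamer with 1, 2 or 5 bases between were in none of the 5 and in 0.588% of all windows. That the Slc16a12 window has no capitals says only that these letters are not in these 300 bases. The Slc16a12 gene itself spans positions 34668401 to 34747493 of chromosome 19, so its annotation extends past the start used for the window.

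Values are log2 levels as the study deposited them, and they are comparable between arrays of 1 experiment. The median level of an array was 7.23 to 7.33 among the 9 arrays of the AGN193109 experiment, against 7.48 to 7.51 among those with DEAB and their vehicle, so levels were not compared between the experiments. The epithelial markers Cdh1 (12.2 to 13.0 over the 18 arrays), Krt8 (13.4 to 14.2), Krt18 and Epcam were bright in all arrays. Aqp2, the water channel of CD principal cells, was at 7.56 to 8.31, and Aqp3 (6.67 to 7.18) and Scnn1a (6.99 to 8.08) were lower. Among markers of other cells, Cd68 (8.60 to 9.55) and Col1a1 (8.10 to 8.58) were as bright as Aqp2 or brighter. Col3a1 (7.65 to 8.16) and Cubn (7.23 to 8.07), among others, overlapped it. Other markers of leukocytes and fibroblasts were dimmer, such as Ptprc (5.89 to 6.25), Lyz2 (5.07 to 5.89) and Pdgfrb (6.17 to 6.68). The level of Aqp2 therefore does not by itself mark CD cells here. None of 14 measured markers of proximal tubule, podocytes, fibroblasts, endothelium and leukocytes was called in any comparison, with or without the replicate block described next, and none of the 7 epithelial markers was. A cluster was called where limma gave an adjusted p under 0.05, with the Benjamini-Hochberg adjustment over the 23410 clusters. Same-numbered arrays deviated together in both experiments, so differences are also given within each replicate number and from a fit with replicate number as a block. In RNA of whole cultures, fewer cells that express a gene and less RNA per cell cannot be told apart.

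Slc16a12 was lower with AGN193109 than with vehicle in each of the 3 replicates, but the difference did not pass the test. Its log2 levels in replicates 1, 2 and 3 were 7.28, 5.97 and 6.69 with AGN193109+tRA, 6.70, 6.09 and 6.68 with AGN193109 and 8.03, 6.48 and 7.47 with vehicle. The ranges of the 3 groups overlapped, because replicate 2 was the lowest of every group and its vehicle array was below the AGN193109 arrays of replicates 1 and 3. In order of the mean, vehicle (7.33 ± 0.79, SD, n = 3) was above AGN193109+tRA (6.64 ± 0.66), and AGN193109 (6.49 ± 0.35) was the lowest, with neighbours in this order less far apart than the larger of their SDs.
The AGN193109 minus vehicle difference was −0.84 ± 0.41 (SE), which is 0.559-fold, with a 95% interval of −1.76 to 0.08 and an adjusted p of 1.00 in limma. Within replicates 1, 2 and 3 it was −1.34, −0.39 and −0.79. With the replicate block, the SE was 0.16 and limma's adjusted p was 0.101. Of the 23410 clusters, 42, Slc16a12 included, had a difference of at least this size, and 88 had a larger within-group SD than Slc16a12.
With AGN193109+tRA, Slc16a12 differed from AGN193109 by 0.16 ± 0.41 (adjusted p = 1.00 in limma, 95% interval −0.76 to 1.07). The differences within replicates were 0.58, −0.12 and 0.00, so that the level with tRA was above that without it by more than 0.01 in replicate 1 alone, and without replicate 1 the mean difference was −0.06. Against vehicle, AGN193109+tRA was lower by 0.75, 0.51 and 0.79 within the 3 replicates, and the mean difference was −0.68 ± 0.41 (adjusted p = 1.00 in limma, and 0.486 with the block). These comparisons share arrays with each other and are not independent.

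In the DEAB experiment, from which it was chosen, Slc16a12 was lower with DEAB than with either of the other groups in every replicate. Its log2 levels in replicates 1, 2 and 3 were 7.35, 8.70 and 9.79 with DEAB+tRA, 6.46, 7.75 and 8.34 with DEAB and 7.03, 8.75 and 9.40 with vehicle. The ranges of the groups overlapped widely, since the 3 arrays of replicate 1 were the lowest of the experiment and every array of replicates 2 and 3 was at 7.75 or above. In order of the mean, DEAB+tRA (8.61 ± 1.22, SD, n = 3) and vehicle (8.39 ± 1.22) were above DEAB (7.52 ± 0.96), and neighbours in this order were closer than their SDs.
DEAB minus vehicle was −0.87 (0.546-fold), made up of −0.57, −1.0 and −1.05 within replicates. DEAB+tRA minus DEAB was 1.09 (2.14-fold), made up of 0.89, 0.95 and 1.45. DEAB+tRA minus vehicle was 0.22, with 0.32, −0.05 and 0.39 within replicates. The SE of each of these differences was 0.77 from group means and 0.12 with the replicate block. By size, the DEAB minus vehicle difference ranked 17 and the DEAB+tRA minus DEAB difference ranked 23 among the 23410 clusters. These ranks are on the values it was chosen from, and its within-group SD there was also the largest of all clusters, so nothing is read from them.
Slc16a12 was lower with AGN193109 than with vehicle in all 3 replicate pairs, as were 9.09% of all clusters. It was also lower with DEAB in all 3 pairs, as were 13.9%, on the values it was chosen from. The vehicle arrays of the 2 experiments were different. The AGN193109 effect minus the DEAB effect was 0.03 ± 0.93 (SE).

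**Figure D1:**
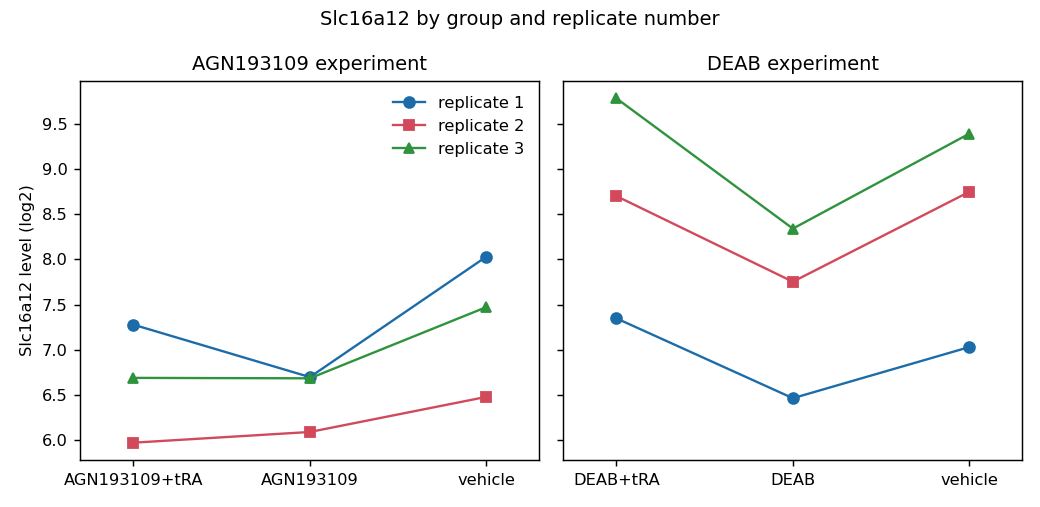
Log2 level of Slc16a12 in the 3 groups (x axis) of the AGN193109 experiment (left) and the DEAB experiment (right), 1 point per array, with lines joining the arrays of 1 replicate number. The inhibitor arrays are below the vehicle arrays on every line, with differences of −1.34 to −0.39, and the lines of the DEAB experiment lie far apart but run nearly in parallel; levels are not to be compared between the panels.

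Slc16a12 differed more between replicates than between groups. Its within-group SD in the DEAB experiment was 1.14, the largest of all 23410 clusters and 12.8 times their median of 0.0893. The next largest were those of Lbp (1.05), Nrep (1.01), Csf1r (0.95) and Akr1c19 (0.93). In the AGN193109 experiment the SD of Slc16a12 was 0.62, with 88 clusters above it. The study short-listed genes partly by their variance, so this rank is a description of a gene chosen in that way.
In the DEAB experiment the replicates differed in level, and much less in their differences between groups. There, the mean over the 3 groups was 6.95 in replicate 1, 8.40 in replicate 2 and 9.17 in replicate 3. Replicate number held 78.1% of the sum of squares of Slc16a12, group 20.4% and the rest 1.49%, where the median share of replicate number over all clusters was 33.1%. In the AGN193109 experiment the means were 7.34, 6.18 and 6.95, and the shares were 58.9%, 33.8% and 7.33% (median share of replicate number 37.0%). The SD that remained after replicate number was taken out was 0.19 in the DEAB experiment, where the median cluster had 0.070, and 0.25 in the AGN193109 experiment, where it had 0.11. The differences between groups varied more in that experiment, as the values within replicates given above show.
Of the other members, Slc16a10 and Slc16a6 had the next largest SDs in the AGN193109 experiment (0.30 each), with 85.6% and 75.9% of their sums of squares held by replicate number, and the remaining 6 clusters had SDs of 0.06 to 0.22. Next to Slc16a12 among the DEAB arrays were Slc16a7 (0.24) and Slc16a6 (0.18), with 0.06 to 0.13 for the other 6.

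**Figure D2:**
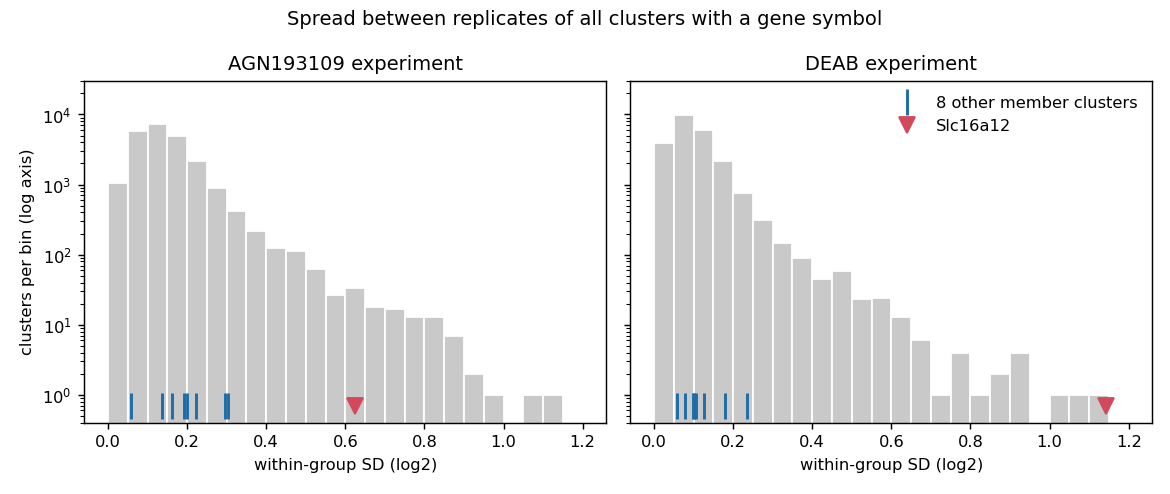
Histogram of the within-group SD of the log2 level over 3 groups of 3 arrays, for 23410 clusters in each experiment (bins of 0.05, log axis), with Slc16a12 as a triangle and the 8 other member clusters as bars at the foot. Slc16a12 stands at 0.62 in the left panel and at 1.14, the right end, in the right panel, while the other members lie at 0.30 or below.

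The genes most like Slc16a12 over the 18 arrays were picked by correlation. That they share its replicate levels and its direction between inhibitor and vehicle is thus partly given by the choice. After each experiment's mean was subtracted, the highest Pearson correlations were those of Tlcd5 (0.951), Kif27 (0.940), Vldlr (0.934, a receptor for lipoproteins and reelin), Upk1a (0.932, a uroplakin of the urothelial surface) and Rbms3 (0.928, an RNA-binding protein). Their Spearman values were 0.894 to 0.940. The points share replicate numbers and groups, so these values carry no test. The 5 genes had mean differences from vehicle of −0.38 to −0.19 with AGN193109 and of −0.33 to −0.11 with DEAB, none past the threshold with or without the block. Tlcd5 had log2 levels of 8.33, 8.80 and 8.95 with DEAB+tRA, 8.01, 8.48 and 8.59 with DEAB and 8.38, 8.86 and 8.83 with vehicle, and like Slc16a12 it was lowest in replicate 1 of each group.
After the mean of each replicate number within its experiment was subtracted instead, a setting added after the data were seen, other genes led: Dhrs3 (0.967), Muc20 (0.964), Adgra1 (0.941), Tns1 (0.938) and Cdkl1 (0.935). The study had short-listed Dhrs3, Muc20 and Tns1 from these same arrays, and Slc16a12 was chosen from its DEAB list. A shared group pattern is thus partly given by the choice, and these values carry no test either. Dhrs3 encodes a retinaldehyde reductase and is a classical tRA-induced gene, Muc20 a membrane mucin and Tns1 a protein of focal adhesions.
Dhrs3 was at 9.07, 7.41 and 8.33 with AGN193109+tRA, 6.94, 7.07 and 7.24 with AGN193109 and 10.7, 8.97 and 10.9 with vehicle. Among the DEAB arrays it was at 9.99, 11.6 and 11.9 with DEAB+tRA, 7.66, 7.89 and 7.83 with DEAB and 8.86, 10.7 and 10.8 with vehicle. Its inhibitor minus vehicle differences, −3.10 for AGN193109 and −2.33 for DEAB, were larger in size than those of Slc16a12 at −0.84 and −0.87. Unlike for Slc16a12, the arrays with an inhibitor alone were close together (6.94 to 7.24 and 7.66 to 7.89), while vehicle arrays spanned 8.97 to 10.9 and 8.86 to 10.8. The Dhrs3 levels with an inhibitor alone lay near the median level of an array, and whether low signal limited their spread was not tested. The Dhrs3 differences had adjusted p-values of 0.118 (AGN193109) and 0.757 (DEAB) in limma, and 0.011 and 0.058 with the block. By RT-qPCR on the same RNA, the study reported Dhrs3, Muc20 and Tns1 as significantly lower with each inhibitor.

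**Figure D3:**
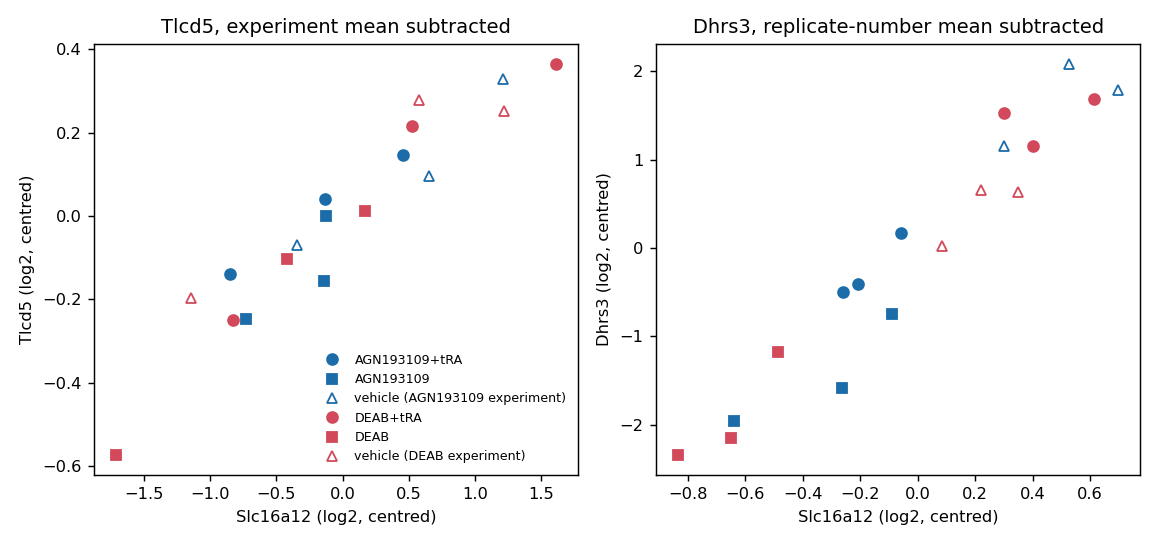
Level of Slc16a12 (x axis) against Tlcd5 with the experiment mean subtracted (left) and against Dhrs3 with the mean of each replicate number subtracted (right), log2, 1 point per array, 18 arrays. Points rise together in both panels (r = 0.951 and 0.967), as both genes were picked for their r. On the right the inhibitor arrays (squares) lie at the lower left in both experiments.

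Of the 16 genes within 200 kb of Slc16a12 on chromosome 19, 10 had a cluster with that symbol alone: Ch25h, Lipa, Ifit2, Ifit3, Ifit3b, Ifit1bl2, Ifit1, Pank1, Mir107 and Kif20b. None was called in any of the 6 comparisons, with or without the block (lowest adjusted p in limma 0.758 and 0.142). The interferon-induced genes Ifit3b, 55.0 kb away, and Ifit3, 79.4 kb away, also varied widely between replicates of the DEAB experiment (within-group SDs of 0.89 and 0.68, ranks 8 and 18 of 23410), and their levels correlated with that of Slc16a12 over the 18 arrays after experiment means were subtracted (r = 0.745 and 0.791, no test). Like Slc16a12, both had negative differences for AGN193109 minus vehicle (−0.50 for Ifit3b and −0.35 for Ifit3) and for DEAB minus vehicle (−0.53 and −0.29), none past the threshold. For DEAB+tRA minus DEAB they had −0.19 and −0.05, where Slc16a12 had 1.09. Ifit2 had r = 0.759, with −0.27 for AGN193109 minus vehicle, −0.20 for DEAB minus vehicle and 0.09 for DEAB+tRA minus DEAB. Ifit1, the nearest of them at 18.4 kb, had a correlation of −0.31. Ifit genes are close paralogs, whose probes may share transcripts.

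None of the other 7 members was called in any comparison. With Slc16a12 counted in the AGN193109 experiment alone, no member passed in AGN193109 versus vehicle (0.0683% of all clusters did), AGN193109+tRA versus AGN193109 (0.0214%), AGN193109+tRA versus vehicle (0%), DEAB versus vehicle (0.0342%), DEAB+tRA versus DEAB (0.325%), DEAB+tRA versus vehicle (0%) or the AGN193109 effect minus the DEAB effect (0%), and no member had an unadjusted p under 0.05 in the 6 comparisons between groups. With the replicate block, which called 0.457%, 0.0812%, 0.00427%, 0.303%, 1.50% and 0.0214% of all clusters in the same 6 comparisons, none passed either. With shares this low, no call among 9 clusters is no result about the members.
The differences of the 8 member clusters other than Slc16a12 lay between −0.10 and 0.15 with AGN193109 against vehicle, and between −0.13 and 0.12 with AGN193109+tRA against AGN193109. They lay between −0.15 and 0.05 with DEAB against vehicle, and between −0.08 and 0.17 with DEAB+tRA against DEAB. The outer bounds of their 95% intervals were −0.42 and 0.60 for AGN193109 and −0.52 and 0.26 for DEAB, each taken over the 8 clusters. The median difference of the 9 clusters was 0.08 with AGN193109 and −0.01 with DEAB, against 0.02 and 0.00 over all clusters.

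**Figure D4:**
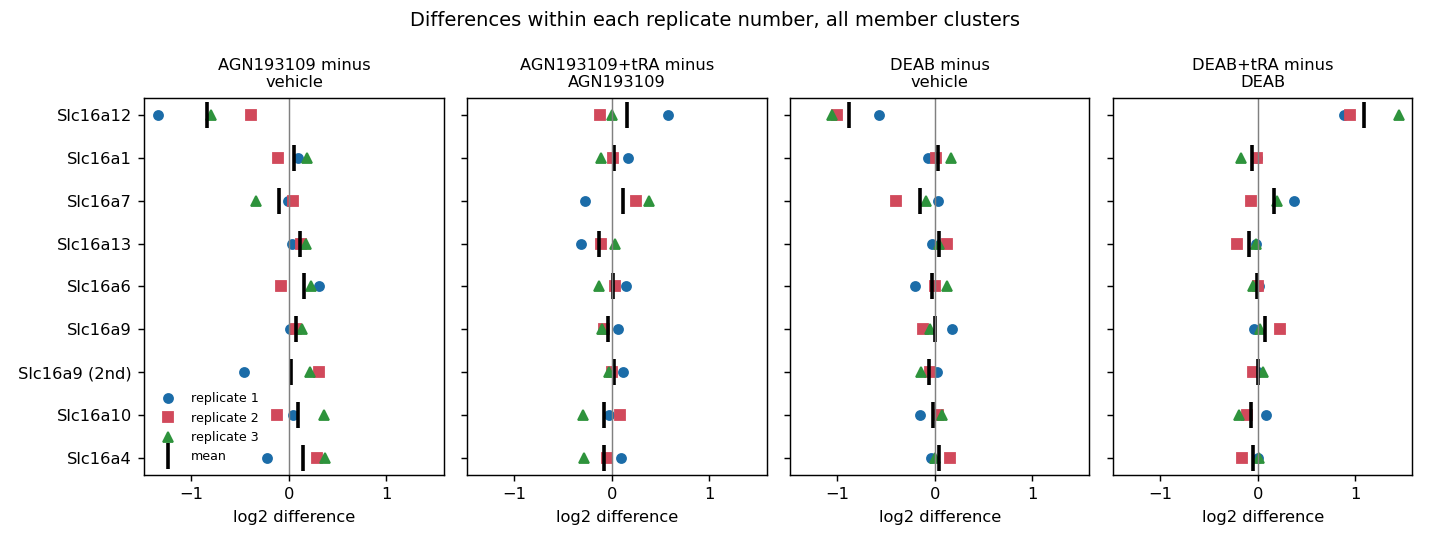
Log2 differences (x axis) of the 9 member clusters within replicates 1, 2 and 3, with their mean as a black bar, for the inhibitor minus vehicle and inhibitor with tRA minus inhibitor in each experiment. Slc16a12 stands apart in 3 of the 4 panels; the means of the other 8 clusters lie between −0.15 and 0.17.

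Slc16a1, the widely expressed lactate and pyruvate transporter, was bright in every array. Its log2 levels were 11.96, 11.99 and 11.89 with AGN193109+tRA, 11.79, 11.98 and 11.99 with AGN193109 and 11.69, 12.09 and 11.81 with vehicle. Among the DEAB arrays they were 12.14, 12.00 and 11.89 with DEAB+tRA, 12.14, 12.01 and 12.06 with DEAB and 12.21, 11.99 and 11.89 with vehicle. The groups overlapped throughout. Over the 18 arrays its level ran opposite to that of Slc16a12 (r = −0.80 after experiment means were subtracted, no test). Replicate number held 77.3% of its sum of squares in the DEAB experiment, where replicate 1 was the highest for Slc16a1 and the lowest for Slc16a12.
Slc16a7, which carries pyruvate and lactate with high affinity, was at 4.98 to 5.66 over all arrays, and Slc16a4, whose substrates are not settled, was at 4.90 to 5.56. Both were below the 30th percentile of cluster means in each experiment (6.48 and 6.63), as was the second Slc16a9 cluster (3.81 to 4.76), so these values lie near the low end of the arrays. The brighter Slc16a9 cluster was at 7.32 to 7.61.
Slc16a6, which exports ketone bodies from the liver in zebrafish, was at 8.07 to 8.75 among the AGN193109 arrays and their vehicle, and at 8.70 to 9.23 among the other 9. Slc16a10 was at 8.87 to 9.71 and at 8.92 to 9.25 in the same 2 sets, with replicate 3 the highest of every AGN193109 experiment group and with the levels of the 3 groups within 0.36 of each other in that replicate.
Slc16a13 was at 10.25, 10.24 and 10.41 with AGN193109 and at 10.22, 10.11 and 10.23 with vehicle, ranges that did not overlap. The share of all clusters without overlap was not computed, so nothing is read from this. The lowest AGN193109 array and the highest vehicle array were close, and the pairs differed by 0.03, 0.13 and 0.18. Slc16a13 and the brighter Slc16a9 cluster were higher with AGN193109 in all 3 pairs, as were 15.0% of all clusters, and Slc16a12 was lower in all 3, as were 9.09%. With DEAB, Slc16a12 was the only member lower in all 3 pairs (13.9% of all clusters), on the values it was chosen from, and no member was higher in all 3 (11.3%). With DEAB+tRA against DEAB, Slc16a12 was the only one higher in all 3 pairs (15.5%) and 2 clusters were lower in all 3 (16.2%), namely those of Slc16a1 and Slc16a13. No member was lower in all 3 pairs of AGN193109+tRA against AGN193109 (13.7%), and Slc16a12 was the only one in AGN193109+tRA against vehicle (12.9%).

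Among 5 further measured SLC16 genes (Slc16a3, Slc16a5, Slc16a8, Slc16a11 and Slc16a14), none was called. Slc16a3, the lactate exporter of glycolytic cells, had differences of the opposite sign to those of Slc16a12, none past the threshold. Its log2 levels were 8.55, 8.75 and 8.82 with AGN193109+tRA, 8.70, 8.90 and 9.17 with AGN193109 and 8.61, 8.68 and 8.79 with vehicle. Among the DEAB arrays they were 9.25, 9.30 and 9.35 with DEAB+tRA, 9.35, 9.69 and 9.60 with DEAB and 9.20, 9.51 and 9.35 with vehicle. In each replicate the inhibitor array was the highest of the 3. The inhibitor minus vehicle difference was 0.23 ± 0.12 for AGN193109 and 0.20 ± 0.10 for DEAB (SE), higher in 6 of 6 pairs, as were 2.63% of all clusters. With tRA added, the difference from the inhibitor was −0.21 ± 0.12 for AGN193109 and −0.25 ± 0.10 for DEAB. None of the 4 differences passed in limma (adjusted p of 1.00, 1.00, 1.00 and 0.752, and 0.490, 0.465, 0.806 and 0.154 with the block), and the groups overlapped in each.

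Among 15 measured genes of lactate and pyruvate metabolism, 1 was called lower with DEAB+tRA than with DEAB and none was called higher, where 0.325% of all clusters were called. The called gene was Pdk4, a kinase that switches off pyruvate dehydrogenase and so keeps pyruvate from oxidation. Its log2 levels were 7.97, 8.10 and 8.17 with DEAB+tRA, 8.81, 8.62 and 8.75 with DEAB and 8.37, 8.49 and 8.38 with vehicle. The 3 groups did not overlap, but the share of all clusters without overlap was not computed, so nothing is read from this. DEAB+tRA minus DEAB was −0.65 ± 0.07 (0.639-fold), with adjusted p = 0.00918 in limma and 0.00917 with the block. Without DEAB replicate 3 the adjusted p was 0.0595 and without DEAB+tRA replicate 2 it was 0.0565, with differences of −0.64 and −0.66. DEAB minus vehicle was 0.31 ± 0.07 (adjusted p = 0.586 in limma).
In the AGN193109 experiment, Pdk4 was at 7.50, 7.38 and 7.43 with AGN193109+tRA, 7.76, 7.44 and 7.44 with AGN193109 and 7.44, 7.18 and 7.23 with vehicle, and AGN193109+tRA minus AGN193109 was −0.11 ± 0.11 (adjusted p = 1.00 in limma). Ldha, the lactate dehydrogenase subunit that favours lactate formation, was at 13.35, 13.43 and 13.36 with DEAB+tRA, 13.56, 13.58 and 13.61 with DEAB and 13.49, 13.50 and 13.48 with vehicle. Its groups did not overlap, from which again nothing is read. The DEAB+tRA minus DEAB difference of Ldha, −0.21 ± 0.04, did not pass in limma (adjusted p = 0.112, and 0.0588 with the block). The clusters of Ldhb, the subunit that favours lactate use, had larger DEAB+tRA minus DEAB differences of 0.31 ± 0.12 and 0.30 ± 0.10, which did not pass either (adjusted p of 0.752 and 0.555 in limma, and 0.140 and 0.0936 with the block). The median difference of the list in that comparison was −0.06, against 0.01 over all clusters.
Among 9 measured genes of carnitine synthesis, uptake and use, none was called without the block. With it, Cpt1a, which links fatty acids to carnitine for entry into mitochondria, was lower with DEAB+tRA than with DEAB (adjusted p = 0.0115 in limma, against 0.883 without the block). The block called 1.50% of all clusters in this comparison. Cpt1a was at 10.72, 11.27 and 11.33 with DEAB+tRA, 11.04, 11.66 and 11.67 with DEAB and 10.84, 11.54 and 11.54 with vehicle, and the pairs differed by −0.32, −0.39 and −0.34. As for Slc16a12, replicate 1 was the lowest of each group in this experiment. In the AGN193109 experiment, Cpt1a was at 11.15, 10.90 and 11.20 with AGN193109+tRA and at 11.30, 10.58 and 11.29 with AGN193109. There it was lower with tRA in replicates 1 and 3 and higher in replicate 2.

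**Figure D5:**
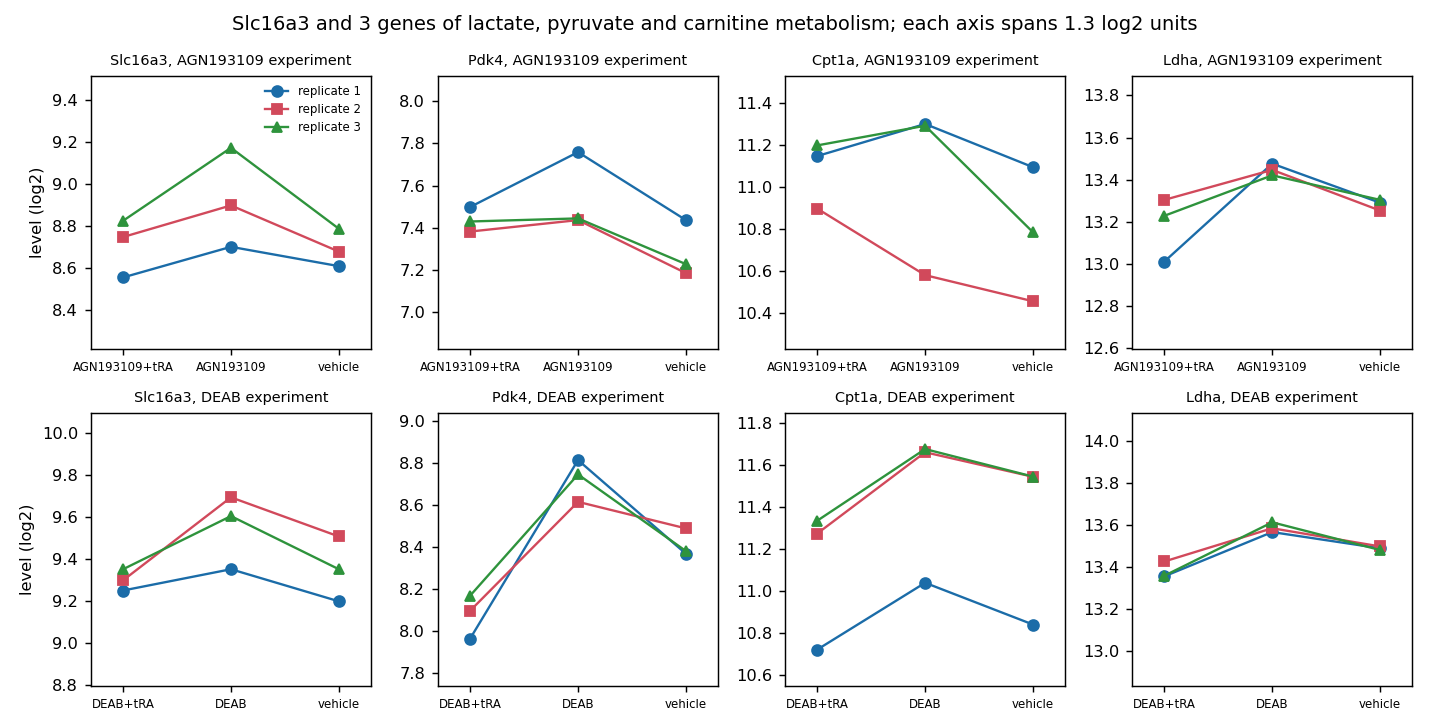
Log2 levels of Slc16a3, Pdk4, Cpt1a and Ldha (columns) in the 3 groups of the AGN193109 experiment (top row) and the DEAB experiment (bottom row), with lines joining the arrays of 1 replicate number. In the bottom row each line has its highest point at DEAB and its lowest at DEAB+tRA for Pdk4, Cpt1a and Ldha.

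No gene was called, with or without the block, among 7 genes of creatine synthesis, uptake and use, the metabolite that Slc16a12 carries (lowest adjusted p in limma 0.827, for Ckm, and 0.465 with the block). The same held for 4 genes of ketone body metabolism (lowest 0.819, for Oxct1), 5 partners of the transporters and sodium-coupled transporters (lowest 0.721, for Slc5a8, a sodium-coupled lactate transporter) and 9 genes of thyroid hormone and aromatic amino acids (lowest 0.538, for Slc7a8, an amino acid transporter).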

How the data were processed

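The 18 arrays (Affymetrix Mouse Gene 1.0 ST) each held RNA of 1 mIMCD-3 culture. The authors normalized them by Robust Multichip Average (RMA) in Affymetrix Expression Console and deposited log2 values, which were used as they are. Its version is not given in the sources used. Groups came from the sample titles, and vehicle arrays were tied to their experiment by how their short names are written. Gene symbols are those of the platform annotation: 21789 clusters had 1 symbol, 1621 several and 12146 none. Each experiment was fitted by group means over its 9 arrays with limma 3.58.1 in R 4.3.3. A run on simulated data drew each array independently, so it did not check the fit for arrays that deviate together by replicate number. Residuals of same-numbered arrays correlated at 0.198 to 0.645 (AGN193109) and 0.179 to 0.614 (DEAB), and those of other arrays at −0.575 to 0.205 and −0.511 to 0.312, so the numbers pair the arrays. With 3 arrays against 3, an exact permutation test cannot go below 0.1, so the p-values depend on limma's model. Precision is limited by the number of arrays.

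The members, the gene lists and the tests were chosen with earlier results of these data known. Named were all members, every called gene of each list or else those with the smallest adjusted p, the 5 genes most like Slc16a12, and its neighbours. Alternatives were the block, quantile normalization again, subtracted array medians, the dimmest 30% of clusters removed, clusters without a symbol added, only the 6 arrays compared, limma's trend and robust options, and each array left out. Figures were drawn with matplotlib in Python.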

Additional observations from a re-analysis of the deposited data

How the results depend on the processing

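No member was called under any alternative other than the replicate block. The block put 1 member (Slc16a12) past the threshold in DEAB+tRA versus DEAB, on the values it was chosen from, so nothing is read from that count. It called no other member, and it added Cpt1a (−0.35) in the same comparison. Pdk4 (−0.65) lost its call when only the 6 arrays compared entered the fit (adjusted p = 0.0721 in limma), and Ldha (−0.21) gained one with the trend and robust options (adjusted p = 0.00926). A value counted as kept if it held its direction and its side of the threshold. For Slc16a12 in the DEAB experiment, which had no test, the side of the threshold was not used. There a value was kept if it held its direction and moved by less than the SD within the groups compared. Over the differences of all member clusters, Slc16a3, Pdk4, Cpt1a and Ldha, 400 of 409 values were kept under the alternatives that kept all arrays. Of the rest, 6 changed sign, each from a size of at most 0.04.

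With each array left out in turn, 489 of 549 values were kept by the same rule, and 58 changed sign, each from a size of at most 0.22. For Slc16a12 the range was −1.26 to −0.49 for AGN193109 minus vehicle, −0.16 to 0.49 for AGN193109+tRA minus AGN193109, −1.11 to −0.33 for AGN193109+tRA minus vehicle, −1.55 to −0.34 for DEAB minus vehicle, 0.51 to 1.73 for DEAB+tRA minus DEAB and −0.46 to 0.85 for DEAB+tRA minus vehicle. Leaving out all arrays of 1 replicate number, added after the data were seen, gave narrower ranges: −1.06 to −0.59, −0.06 to 0.29, −0.77 to −0.63, −1.03 to −0.78, 0.92 to 1.20 and 0.14 to 0.36, in the same order. The range for Pdk4 was −0.70 to −0.59. Dim probes limit Slc16a4, Slc16a7 and the second Slc16a9 cluster.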
